A study of Mus musculus with 8 samples.

Results

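Ribosome biogenesis is the assembly of the small and large ribosomal subunits, which begins in the nucleolus when RNA polymerase I transcribes the ribosomal RNA precursor. Levels of 55 genes of this pathway, chosen by name as subunits of RNA polymerase I, nucleolar scaffold proteins, small nucleolar ribonucleoprotein (snoRNP) proteins and assembly factors of both subunits, were followed in mouse embryonic stem cell (ESC) lines with and without the zinc finger transcription factor Zfp281. The genes were matched by symbol to the annotation of the array, and 54 of the 55 were measured, among 18193 genes in all. Mrto4, an assembly factor of the large subunit, shares its probe set with 2 pseudogenes and was not analysed. Each gene had a single value, from whichever of its probe sets had the highest mean log2 value over all arrays.

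RNA was taken from 8 ESC lines, and each was hybridised to 1 Affymetrix mouse genome array. The genotypes compared were Zfp281 wild-type (lines 3, 3.2 and 3.3), Zfp281 heterozygous (lines 5 and 3.1) and Zfp281 deficient, called null here (lines 7, 3.34 and 3.38). All lines came from blastocyst outgrowths of heterozygous matings, carried the targeted allele, which has lost the whole coding region of Zfp281, on none, 1 or both chromosomes, and grew on primary mouse embryonic fibroblasts with leukemia inhibitory factor. A line is the replicate, so the spread within a genotype joins differences among lines with technical error. By the study's text, null line 7 shared a litter with wild-type line 3, and null line 3.38 with wild-type line 3.3.

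In the nucleolus, the polymerase I transcript is bound by snoRNPs, which guide its methylation (box C/D) and its pseudouridylation (box H/ACA), and by the U3 snoRNP, around which the small subunit processome is built. Cleavage then separates the precursors of the small and the large subunit, which take up further assembly factors and are exported to the cytoplasm for their last steps. Many dividing cells, ESCs among them, are known for large nucleoli and high expression of these factors.

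On the arrays the Zfp281 transcript itself followed the labels, with log2 values of 6.72 to 7.93 in wild-type, 6.69 to 6.97 in heterozygous and 3.64 to 5.23 in null lines. Of 14 ESC markers, 13 had a present call in every wild-type and every heterozygous line and 12 in every null line. Their mean log2 level ranged from 8.42 to 9.13 in wild-type and from 8.99 to 9.31 in null lines, and both heterozygous lines lay within the wild-type range. Against wild-type lines, the null mean was higher for 10 of the 14, with a median log2 fold change of 0.54, and 2 rose, Dppa4 by 0.88 (adjusted p = 0.0483 by limma) and Dppa5a by 1.23 (adjusted p = 0.0301 by limma). It was lower for 4, furthest for Lin28a at a log2 fold change of −2.62 with overlapping lines (adjusted p = 0.347 by limma). Among the ESC markers, Utf1 had no present call on any array. Of 19 markers of feeder fibroblasts, 11, 16 and 12 were present in every wild-type, heterozygous and null line respectively, and their mean log2 level ranged from 6.38 to 7.12 in wild-type, from 6.78 to 7.11 in heterozygous and from 6.32 to 6.42 in null lines, in which 16 of the 19 had a lower mean than in wild-type lines. Of 16 endoderm markers, 10, 6 and 8 were present in every line of the same genotypes, with mean log2 levels of 5.52 to 6.45, 5.23 to 5.76 and 5.31 to 5.65. On average 14 of the 16 were lower in null lines than in the wild type, and 1 passed limma, Lamb1, with a log2 fold change of −1.25 (adjusted p = 0.0384 by limma). In such bulk RNA, a different share of cells of a type and a different level in each cell cannot be told apart, and the part of these markers' cells in the differences between genotypes was not tested. The 3′ minus 5′ difference of the controls for Gapdh and beta-actin, which grows as RNA is degraded or incompletely copied, was 4.23 to 4.86 in wild-type, 4.49 and 4.80 in heterozygous and 2.68 to 3.71 in null lines on the log2 scale. Its ranges in null and other lines did not overlap, and this holds for every difference between null and other lines given here.

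Most of the ribosome biogenesis genes were more highly expressed, on average, in null lines. Against wild-type lines, the mean log2 value of null lines was higher for 46 of 54 genes (46.8% of all genes) and lower for 8. The median log2 fold change from wild-type to null lines was 0.49 over the 54 genes, with a range from −0.38 to 1.47, against −0.01 over all genes and −0.02 over the 7306 detected genes, which had a present call in every line of some genotype. In limma with adjustment over all genes, 7 genes rose at an adjusted p under 0.05, none fell and 47 did not pass. That is 13% of the measured genes, against 0.693% of all genes that rose and 0.44% that fell, and since the genes were chosen with earlier results of these data known, it is a description and not independent evidence. Litter as a block over the 4 lines paired by litter was an alternative chosen after seeing the data. In this fit 1 of the 54 genes, Nop16, passed limma, against 178 of all 18193 genes. Without this block, 19 of the 54 genes had an adjusted p under 0.1 by limma, against 777 of all 18193 genes. Of these 19 genes, 12 lay between 0.05 and 0.1. Without adjustment 31 genes were higher and 2 lower at a p under 0.05. The share over all genes was not counted for this or for any other unadjusted count between null and wild-type lines.

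The null lines lay above all wild-type lines in 30 genes, or 55.6% (11.1% of all genes), and below them in 2 genes, Npm1 and Utp18 (11.2% of all genes). In the other 22 genes the lines of both genotypes overlapped. In 29 genes the null lines were above the heterozygous lines as well (6.96% of all genes), the exception being Noc4l. The 30 and the 29 genes include Polr1a and Rrp9, whose kept probe sets had no present call on any array. A difference of more than 2-fold upward was found for 9 genes (1.37% of all genes), 4 of which passed limma, and no gene was more than 2-fold lower (1.1% of all genes). With a present call on any probe set of a gene counted, 46 genes were present in all 8 lines. On the probe set kept, 50 were present throughout at least 1 genotype.

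**Figure D1:**
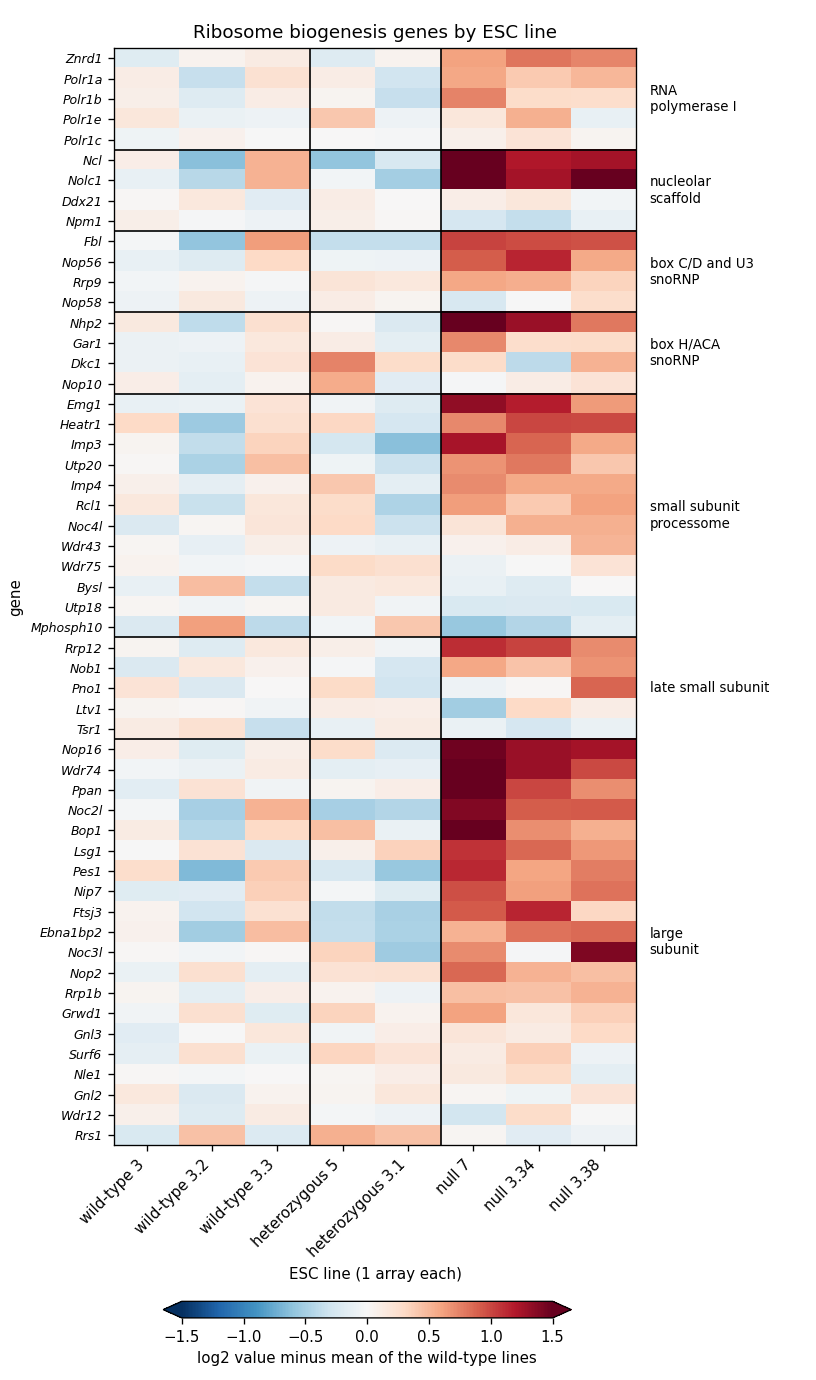
Heat map of the 54 measured genes (rows, grouped by role and ordered by fold change within a role) in the 8 ESC lines (columns, 1 array each), as the log2 value minus the mean of the 3 wild-type lines. The 3 null lines are red in most rows, and Npm1, Utp18, Mphosph10 and Tsr1 lie below the wild-type mean (blue) in all 3 null lines.

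The shift was found in each null line taken alone. The median of the 54 genes, relative to the wild-type mean of each, was 0.59 in null line 7, 0.44 in line 3.34 and 0.51 in line 3.38. Wild-type lines had medians of 0.02 (3), −0.11 (3.2) and 0.10 (3.3), and heterozygous lines of 0.07 (5) and −0.09 (3.1). Over all genes the same median lay between −0.02 and 0.01 in every line. The highest value of the 8 lines was in a null line for 45 genes, 23 of them in line 7, in a heterozygous line for 5 and in a wild-type line for 4. Between litter mates, null line 7 was above wild-type line 3 in 42 of 54 genes (46.2% of all genes), with a median difference of 0.54 on the log2 scale. Null line 3.38 was above wild-type line 3.3 in 48 of 54 (49.9% of all genes), with a median difference of 0.34.

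RNA polymerase I was represented by 5 subunits, all with a higher mean in null lines and a median log2 fold change of 0.42. Znrd1, a small subunit needed for transcript cleavage and termination, had log2 values of 6.87, 7.11 and 7.18 in wild-type, 6.86 and 7.11 in heterozygous and 7.66, 7.86 and 7.78 in null lines, in the order of lines given above, which is kept below. The null lines were above all others, and Znrd1 rose by a log2 fold change of 0.71 (standard error, SE, 0.13, adjusted p = 0.0467 by limma). Of the catalytic subunit genes, Polr1b also had null lines above all others, with a log2 fold change of 0.42 (SE 0.17, adjusted p = 0.269 by limma). The Polr1a probe set kept here had no present call on any array, so no fold is given from it. Another Polr1a probe set, present in all wild-type and null lines, had a log2 fold change of 0.14 with overlapping lines (SE 0.15, adjusted p = 0.766 by limma over 34945 probe sets). Polr1e, a subunit outside the catalytic core, had a log2 fold change of 0.20, with overlapping lines. Polr1c, which is shared with RNA polymerase III, had the lowest fold change of the class. Its log2 values were 9.40, 9.53 and 9.45 in wild-type, 9.46 and 9.44 in heterozygous and 9.54, 9.67 and 9.50 in null lines, a log2 fold change of 0.11 with overlapping lines.

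Of 4 nucleolar scaffold and chaperone genes, 2 had null lines above all others and 1 had null lines below all others. Nolc1, a phosphoprotein that shuttles between nucleolus and cytoplasm and binds snoRNPs, had log2 values of 6.93, 6.62 and 7.57 in wild-type, 7.00 and 6.53 in heterozygous and 8.66, 8.28 and 8.53 in null lines. Nolc1 rose by 1.45 on the log2 scale (SE 0.24, adjusted p = 0.0434 by limma), or 2.73-fold, with every null line above every other line. Ncl, which encodes nucleolin, an abundant nucleolar RNA-binding protein, had the largest fold change of all 54 genes. Its log2 values were 9.93, 9.21 and 10.35 in wild-type, 9.24 and 9.58 in heterozygous and 11.79, 11.03 and 11.08 in null lines, a log2 fold change of 1.47. All null lines were above all others, but wild-type lines spread widely and Ncl did not pass (SE 0.31, adjusted p = 0.0638 by limma).

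Npm1, which encodes nucleophosmin, a chaperone that shapes the outer layer of the nucleolus, had a lower mean in null lines. Its log2 values were 13.03, 12.92 and 12.87 in wild-type, 13.03 and 12.96 in heterozygous and 12.69, 12.58 and 12.83 in null lines. The null lines lay below all others by a small margin, with a log2 fold change of −0.24 (SE 0.11, adjusted p = 0.304 by limma). On a second probe set, present on all arrays, the Npm1 log2 fold change was 0.18. Ddx21, a nucleolar RNA helicase, had a log2 fold change of 0.08, with overlapping lines.

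The box C/D and U3 snoRNP class had 4 genes, all with higher means in null lines, and none passed limma (unadjusted p under 0.05 in Fbl, Nop56 and Rrp9). Fbl encodes fibrillarin, the methyltransferase of box C/D snoRNPs, and had log2 values of 9.13, 8.58 and 9.79 in wild-type, 8.81 and 8.80 in heterozygous and 10.18, 10.15 and 10.12 in null lines. The null lines were close together and above all others, while wild-type lines ranged over more than a unit, and the log2 fold change was 0.98 (SE 0.26, adjusted p = 0.102 by limma). The core proteins Nop56 and Nop58, which form a heterodimer in these particles, had unequal fold changes. Nop56 had a log2 fold change of 0.87 (SE 0.18, adjusted p = 0.0613 by limma) with null lines above all others. Nop58 had log2 values of 9.93, 10.14 and 9.93 in wild-type, 10.11 and 10.04 in heterozygous and 9.75, 9.998 and 10.27 in null lines, and its fold change of 0.01 on the log2 scale was the smallest of the class. Rrp9, a U3 protein, had no present call on any array, so no fold is given.

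In the box H/ACA class, all 4 genes had higher means in null lines and none passed limma (unadjusted p under 0.05 in Nhp2 and Gar1). Nhp2, an RNA-binding core protein, had log2 values of 8.73, 8.20 and 8.83 in wild-type, 8.61 and 8.37 in heterozygous and 10.44, 9.89 and 9.38 in null lines. All null lines were above all others and differed among themselves by about a unit, with a log2 fold change of 1.31 (SE 0.27, adjusted p = 0.0613 by limma). Gar1, the other gene of the class with null lines above all others, had a log2 fold change of 0.42. Dkc1, which encodes the pseudouridine synthase dyskerin, had a log2 fold change of 0.14, with overlapping lines. Nop10, a small core protein, had log2 values of 11.09, 10.85 and 11.05 in wild-type, 11.56 and 10.82 in heterozygous and 10.97, 11.11 and 11.20 in null lines, a log2 fold change of 0.10 that is less than the spread between lines.

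The small subunit processome is a large particle that folds and cleaves the precursor of the small subunit, and 12 of its genes were measured, with a median log2 fold change of 0.48. In null lines 9 genes had higher and 3 had lower means, and in 6 the null lines were above all wild-type lines. Emg1, a methyltransferase that modifies a pseudouridine of the small subunit rRNA, had log2 values of 7.54, 7.56 and 7.86 in wild-type, 7.60 and 7.46 in heterozygous and 8.99, 8.83 and 8.29 in null lines. Emg1 rose by 1.05 on the log2 scale (SE 0.19, adjusted p = 0.0467 by limma), with all null lines above all others.

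Next to Emg1 stood Heatr1 and Imp3 at log2 fold changes of 0.91 and 0.89, then Imp4 at 0.61, Rcl1 at 0.54 and Noc4l at 0.42, in all of which the null lines were above the wild-type lines. Imp3 and Imp4 are partners of Mphosph10 in a complex bound to U3, yet Mphosph10 had the lowest fold change of the 54 genes. Its log2 values were 8.94, 9.78 and 8.78 in wild-type, 9.13 and 9.57 in heterozygous and 8.60, 8.73 and 9.02 in null lines. Wild-type line 3.2 was the highest and the genotypes overlapped, with a log2 fold change of −0.38 (SE 0.26, adjusted p = 0.558 by limma).

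Utp18, a scaffold protein of the processome, had log2 values of 8.42, 8.34 and 8.43 in wild-type, 8.54 and 8.35 in heterozygous and 8.17, 8.18 and 8.17 in null lines. The null lines were almost equal and below all others, with a log2 fold change of −0.22 (SE 0.10, adjusted p = 0.304 by limma). Bysl, a factor of the small subunit precursor that stays bound until late steps, had values of 6.38, 6.95 and 6.12 in wild-type, 6.62 and 6.64 in heterozygous and 6.38, 6.30 and 6.49 in null lines, and a log2 fold change of −0.10 with overlapping lines. The processome proteins Utp20, Wdr43 and Wdr75 had log2 fold changes of 0.62, 0.23 and 0.03, also with overlapping lines.

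The late precursor of the small subunit was represented by 5 genes, with a median log2 fold change of 0.27. Rrp12, a repeat protein needed for export of the precursor, had log2 values of 4.21, 3.97 and 4.33 in wild-type, 4.26 and 4.12 in heterozygous and 5.27, 5.18 and 4.87 in null lines. Rrp12 had a present call in all 3 null lines and in no wild-type or heterozygous line. It rose by 0.94 on the log2 scale (SE 0.14, adjusted p = 0.0370 by limma). The 1.92-fold of these values is a bound only in that undetected wild-type levels may be lower, and it does not cover the SE.

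Nob1, the endonuclease that forms the end of the small subunit rRNA, had null lines above all others and a log2 fold change of 0.56 (SE 0.13, adjusted p = 0.0840 by limma), with present calls in 2 wild-type, 1 heterozygous and 2 null lines. Pno1, its partner, had a log2 fold change of 0.27, with overlapping lines. Tsr1, a GTPase-like factor, had log2 values of 10.05, 10.16 and 9.58 in wild-type, 9.82 and 10.05 in heterozygous and 9.83, 9.68 and 9.82 in null lines, a log2 fold change of −0.15. Ltv1, an export factor, had values of 8.58, 8.55 and 8.48 in wild-type, 8.66 and 8.64 in heterozygous and 8.02, 8.84 and 8.65 in null lines, a log2 fold change of −0.04. Both genes had overlapping lines, and null line 7 had the lowest Ltv1 value of all 8.

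Assembly factors of the large subunit were the largest class, with 20 genes measured and a median log2 fold change of 0.71. In 18 genes the mean was higher in null lines, in 12 the null lines were above all wild-type lines, and 3 genes rose. Nop16, a nucleolar factor of the large subunit precursor, had the smallest p of the 54 genes. Its log2 values were 4.18, 3.91 and 4.18 in wild-type, 4.36 and 3.89 in heterozygous and 5.55, 5.38 and 5.34 in null lines. All null lines were above all others, and Nop16 rose by 1.33 on the log2 scale (SE 0.15, adjusted p = 0.0301 by limma), or 2.52-fold.

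Wdr74, a nucleolar protein that works with an ATPase on remodelling of the precursor, had log2 values of 6.92, 6.88 and 7.08 in wild-type, 6.81 and 6.84 in heterozygous and 8.62, 8.25 and 7.94 in null lines. Wdr74 rose by 1.32 on the log2 scale (SE 0.17, adjusted p = 0.0301 by limma), or 2.49-fold, with all null lines above all others. Lsg1, a cytoplasmic GTPase that releases an export adaptor from the large subunit, had log2 values of 4.77, 4.98 and 4.55 in wild-type, 4.84 and 5.11 in heterozygous and 5.85, 5.63 and 5.42 in null lines. It rose by 0.87 on the log2 scale (SE 0.16, adjusted p = 0.0488 by limma), again with no overlap of null and other lines.

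Ppan, Noc2l and Bop1 had fold changes over 2 without passing limma. Ppan, a factor of early large subunit assembly, had log2 values of 5.79, 6.17 and 5.90 in wild-type, 5.99 and 6.05 in heterozygous and 7.63, 6.95 and 6.64 in null lines. With no present call in a wild-type line and one in every null line, its difference was 2.18-fold on these values (adjusted p = 0.0637 from limma). This is a bound only in that undetected wild-type levels may be lower, and it does not cover the SE, 0.23 on the log2 scale. Noc2l, part of a pair of nucleolar export factors with Noc3l, had log2 values of 5.97, 5.50 and 6.53 in wild-type, 5.50 and 5.57 in heterozygous and 7.39, 6.90 and 6.93 in null lines. All null lines were above all others, with a log2 fold change of 1.07 (SE 0.25, adjusted p = 0.0790 by limma).

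Bop1, Pes1 and Wdr12 form the PeBoW complex, which is needed to process the large subunit rRNA. Bop1 had log2 values of 5.58, 5.03 and 5.75 in wild-type, 5.91 and 5.35 in heterozygous and 7.23, 6.15 and 5.98 in null lines, a log2 fold change of 1.00 (SE 0.34, adjusted p = 0.183 by limma). Null line 7 was more than a unit above the other null lines, and Bop1 had a present call in 1 wild-type, 1 heterozygous and all 3 null lines. Pes1 had a log2 fold change of 0.83 (SE 0.28, adjusted p = 0.176 by limma), with null lines above all others. Wdr12 had log2 values of 8.20, 7.94 and 8.25 in wild-type, 8.09 and 8.05 in heterozygous and 7.85, 8.40 and 8.13 in null lines, and differed by less than the spread between lines, with a log2 fold change under 0.01 in size.

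The other large subunit genes with null lines above all others were Nip7 and Ftsj3, at log2 fold changes of 0.80 and 0.79, Ebna1bp2 at 0.73, Nop2, an rRNA methyltransferase, at 0.62, and Rrp1b at 0.47. Lines overlapped for Noc3l at 0.70, Grwd1 at 0.38, Gnl3, which encodes the stem cell GTPase nucleostemin, at 0.20, and Surf6, Nle1 and Gnl2 at 0.13, 0.09 and 0.06. Rrs1, which brings the small 5S particle into the large subunit, had log2 values of 8.91, 9.58 and 8.94 in wild-type, 9.68 and 9.58 in heterozygous and 9.17, 8.97 and 9.06 in null lines. Its log2 fold change was −0.07, the lowest of the class, with the null lines inside the range of the wild-type lines.

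**Figure D2:**
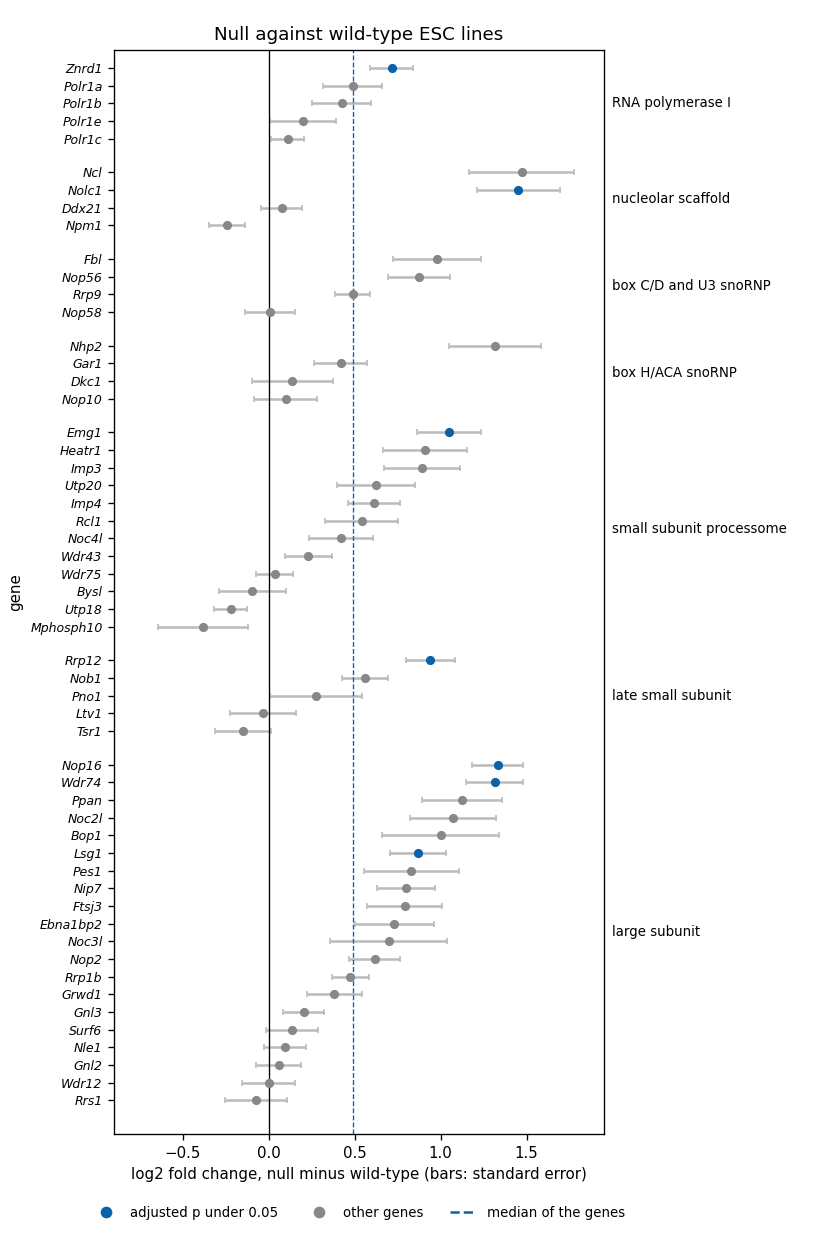
Log2 fold change of each of the 54 genes from wild-type to null lines (points) with its standard error from limma (bars), grouped by role. Blue points are the 7 genes at an adjusted p under 0.05, and the dashed line is the median, 0.49. The points of Polr1a and Rrp9 come from probe sets with no present call.

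**Figure D3:**
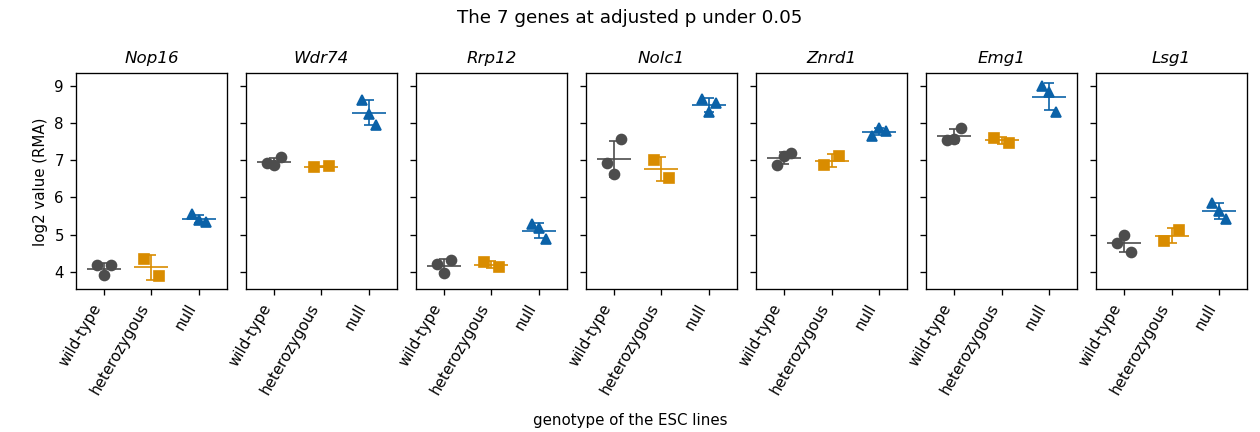
Log2 values of the 7 genes that rose, with 1 point for each line and the mean and SD of each genotype (3 wild-type, 2 heterozygous and 3 null lines). In all 7 panels the null lines lie above every wild-type and heterozygous line.

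The number of genes that rose depended on single lines. Without wild-type line 3, wild-type line 3.2 or null line 7, no gene of the 54 passed limma, with 27, 25 and 25 genes at an unadjusted p under 0.05, and over all genes only 2, 4 and 3 passed. The number was 2 without null line 3.34, 3 without heterozygous line 5 or 3.1, 8 without null line 3.38 and 9 without wild-type line 3.3. Over all genes 177 passed without null line 3.34, 182 without null line 3.38 and 208 without wild-type line 3.3. The median log2 fold change of the 54 genes stayed between 0.42 and 0.53 in the 8 fits with a line left out. Leaving out either heterozygous line gave the same fit of null against wild-type lines, with an unchanged median of 0.49. The tallies that follow count this fit for both lines. Nop16 and Wdr74 passed in 5 of the 8, Rrp12 in 4, Nolc1 and Emg1 in 1, and Znrd1 and Lsg1 in none, with an adjusted p by limma of 0.0507 to 0.155 and 0.0508 to 0.189.

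The median level of the 54 genes and the transcript-end signal of the controls both separated the null lines from the others. The 3 null lines, with the smallest 3′ minus 5′ difference, had the highest medians of the 54 genes, and null line 7 had both the smallest difference, 2.68, and the highest median. Within the wild-type lines, line 3.3 had the smallest difference, 4.23, and the highest level in 29 of the 54 genes. The order was not the same throughout, since line 3, with the largest difference, 4.86, had the lowest level of these lines in 12 genes. Line 3.2, at a difference of 4.75 and with the lowest share of probe sets called present (30.4% against 33.1% and 33.2%), had the lowest level in 32. With this difference as a covariate in limma, no gene passed, 5 of 54 had an unadjusted p under 0.05 and no gene of the whole table passed. The log2 fold changes of the 7 genes were then 0.52 to 1.00, all upward, with standard errors of 0.27 to 0.38, and the median over the 54 genes was 0.28, with 47 upward. Genotype and this difference go together in these lines, and their parts in the level cannot be told apart.

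**Figure D4:**
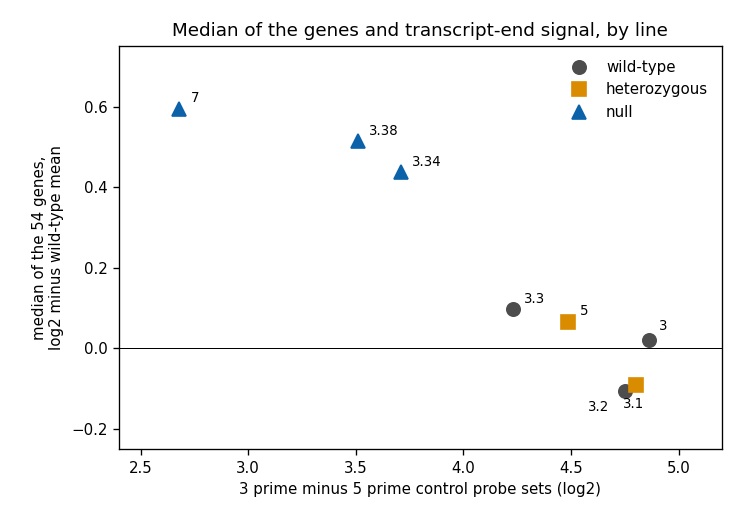
Median of the 54 genes in each line, relative to the wild-type mean of each gene (log2), against the control signal at 3′ ends minus that at 5′ ends (log2), with 1 point for each line. The null lines lie at the upper left, at differences of 2.68 to 3.71 and medians of 0.44 to 0.59.

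Probe sets of 1 gene did not always give the same size of change. Of the 54 genes, 34 had more than 1 probe set. In 19 genes at least 2 probe sets were present on all arrays, and in 15 of these (78.9%) the second in mean level had the higher log2 fold change, by a median of 0.37 over the 19. Over the 1729 genes of the whole table with such pairs the share was 59.1% and the median difference 0.10. The signs differed among the probe sets of 6 genes, namely Bysl, Gnl2, Npm1, Rrs1, Tsr1 and Wdr75. Where on each transcript a probe set lies was not analysed here.

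Polr1c had the widest gap, with log2 fold changes of 0.11 and 1.31 (SE 0.23, adjusted p = 0.0496 by limma over 34945 probe sets) on its first and second probe sets. Nhp2 had 1.31 and 2.44 on the log2 scale, and Rrs1 −0.07 and 0.71. The 4 Ncl probe sets present on all arrays gave log2 fold changes of 1.47, 1.75, 0.14 and 0.53. Nolc1 passed on both of its probe sets present on all arrays, with log2 fold changes of 1.45 and 1.14 (adjusted p = 0.0465 and 0.0498 from limma). Its other probe set had present calls on 3 of the 8 arrays, so no fold is given from it. Nop56 and Wdr43 passed on their second probe sets, at 1.15 and 0.71 on the log2 scale, and of the 105 probe sets of these genes 11 passed, against 0.919% of all probe sets.

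**Figure D5:**
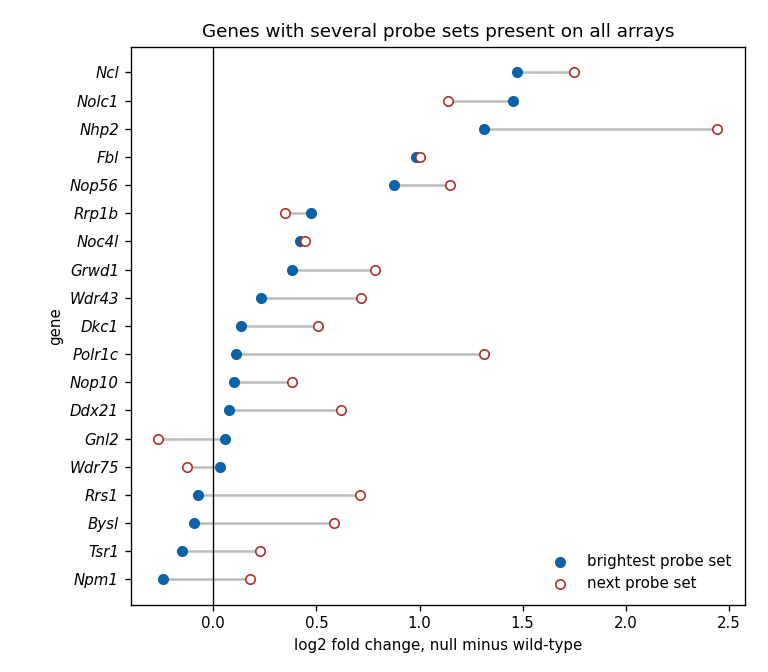
Log2 fold change from wild-type to null lines for the first (filled) and second (open) probe set by mean level of the 19 genes with at least 2 probe sets present on all arrays. The open point lies to the right of the filled one in 15 of 19 genes, and most widely in Polr1c and Nhp2.

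Heterozygous lines did not differ detectably from wild-type lines. The median log2 fold change between heterozygous and wild-type lines was 0.00, with 28 genes higher, 26 lower and a range from −0.47 to 0.51. None of the 54 genes passed limma (0% of all genes), and the smallest adjusted p was 0.997. Without adjustment only Rrs1 had a p under 0.05 (3.85% of all genes), with a log2 fold change of 0.49 in the direction of heterozygous lines. The median standard error of the 54 differences was 0.19.

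Between null and heterozygous lines the median log2 fold change was 0.49, with 41 genes higher and 13 lower in null lines. This comparison shares the null lines with the comparison with wild-type, and the heterozygous lines with the other. No gene passed limma (0% of all genes, smallest adjusted p 0.0529), while 29 genes were higher (7.65% of all genes) and 3 lower (6.16% of all genes) at an unadjusted p under 0.05. A difference over 2-fold was found for 13 genes (1.76% of all genes), the largest being Ncl at a log2 fold change of 1.89. Without wild-type line 3.2 or 3.3, 13 and 7 of the 54 genes passed, and 346 and 121 of all genes. These wild-type lines enter this comparison only through the estimate of the spread.

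Correlation among the 54 genes was computed as a description of how they varied together. Over the 8 arrays the mean correlation between pairs of the 54 genes was 0.267, against 0.00460 over all genes and 0.0129 over the detected genes. With the mean of each genotype removed it was 0.0784, against 0.00420 and 0.0185. These correlations share the same arrays and their RNA quality and no test was made of them.

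Sequences before the start sites of genes that rose together are shown, so that shared motifs can be looked for. RefSeq promoter windows of the GRCm38.p6 assembly, from 250 bases before to 50 after an annotated start, were given for 48 of the 54 genes and not for Npm1, Fbl, Rrp12, Bop1, Rrs1 and Gnl2. The 250 bases before the start are printed 5′ to 3′ for the 4 genes with the smallest p among those that rose and have a window. Capitals mark the GC box (GGGCGG, or CCGCCC on the other strand) and the CCAAT box (CCAAT).
Nop16, chr13:54590075-54590324, minus strand: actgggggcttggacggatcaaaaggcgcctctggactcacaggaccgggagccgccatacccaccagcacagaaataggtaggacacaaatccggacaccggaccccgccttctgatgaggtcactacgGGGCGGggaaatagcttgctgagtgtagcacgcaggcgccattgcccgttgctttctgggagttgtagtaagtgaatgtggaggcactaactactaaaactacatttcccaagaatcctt
Wdr74, chr19:8735589-8735838, plus strand: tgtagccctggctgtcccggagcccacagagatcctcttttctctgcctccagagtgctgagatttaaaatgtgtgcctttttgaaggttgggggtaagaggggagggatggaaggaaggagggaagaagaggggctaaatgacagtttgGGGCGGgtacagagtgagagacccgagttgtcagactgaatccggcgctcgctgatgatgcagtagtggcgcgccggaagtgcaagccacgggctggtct
Nolc1, chr19:46075597-46075846, plus strand: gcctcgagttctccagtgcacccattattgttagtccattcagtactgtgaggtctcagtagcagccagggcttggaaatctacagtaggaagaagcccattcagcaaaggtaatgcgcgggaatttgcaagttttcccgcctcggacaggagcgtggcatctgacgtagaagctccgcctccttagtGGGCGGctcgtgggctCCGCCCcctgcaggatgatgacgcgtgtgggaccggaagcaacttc
Znrd1, chr17:36958526-36958775, minus strand: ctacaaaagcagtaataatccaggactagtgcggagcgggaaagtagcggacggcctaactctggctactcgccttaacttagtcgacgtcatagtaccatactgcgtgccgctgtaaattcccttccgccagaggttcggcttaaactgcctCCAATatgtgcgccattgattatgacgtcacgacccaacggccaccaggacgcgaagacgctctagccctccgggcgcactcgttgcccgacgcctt

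Counted from the annotated start, the GC box began at −120 in Nop16, at −100 in Wdr74 and at −62 and −46 in Nolc1. The window of Znrd1 held a CCAAT box beginning at −97 and no GC box, and it is 1 of 2 listed for this gene. The E-box CACGTG, a site known to be bound by Myc family factors, and the G-rich run GGGAGGGG were in none of these 4 windows. Each motif was searched on both strands of the whole 300-base windows, and none of the 4 motifs contains another.

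Among the 53 windows of the ribosome biogenesis genes, 11 (20.8%) held the E-box, against 7.15% of all 32851 windows and 8.72% of the windows of measured genes. The GC box was in 60.4%, against 35.7% and 52.3%, the CCAAT box in 37.7%, against 37.4% and 37.4%, and the G-rich run in 5.66%, against 12.2% and 15.6%. The 11 genes with an E-box were Utp18, Utp20, Wdr43, Imp4, Tsr1, Pno1, Ltv1, Pes1, Nop2, Nle1 and Grwd1. Their median log2 fold change from wild-type to null lines was 0.27, with 8 of 11 higher, and that of the 37 genes without one was 0.54, with 34 higher. None of the 7 genes that rose was among the 11, and Rrp12 had no window. These matches describe letters in a window, and binding was not measured here.

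Other genes of the pathway, 132 in 4 further lists of which 127 were measured, had a smaller shift. Their median log2 fold change from wild-type to null lines was 0.20, with 90 higher and 37 lower, and the null lines were above all wild-type lines in 48 (37.8%) and below them in 7. In limma 4 genes (3.15%) rose and none fell. Of 43 further small subunit factors, Tbl3, a scaffold protein of the processome, rose by 1.01 on the log2 scale (SE 0.18, adjusted p = 0.0467 by limma). Nop9, which binds the same precursor, rose by 0.81 (SE 0.14, adjusted p = 0.0467 by limma), and the median of the list was 0.04.

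Of 23 nucleases and snoRNP assembly factors, the exosome subunits Exosc3 and Exosc7 rose by 0.91 and 1.49 on the log2 scale (adjusted p = 0.0384 and 0.0317 from limma), and the median of the list was 0.40. Of 16 further polymerase I subunits and factors none passed limma (6 at an unadjusted p under 0.05), with log2 fold changes from −0.13 in Polr1d to 1.10 in Polr2e and a median of 0.19. Of 45 further large subunit factors none passed (14 at an unadjusted p under 0.05), from −0.49 in Ddx31, which had a present call on 1 array, to 1.37 in Las1l, with a median of 0.22.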

How the data were processed

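Total RNA of the 8 ESC lines was hybridised by the authors, who deposited RMA-normalized log2 values of all arrays in 1 table. For each array they deposited a second table with linear signal intensity, a present, marginal or absent call and the p-value of that call. RMA and limma are named without version numbers. Log2 columns were matched to signal tables by correlation, and every column was closest to its own array. Of 45101 probe sets, 34945 have 1 gene in the platform annotation. For each of 18193 genes the probe set with the highest mean was kept, and symbols were checked in the RefSeq gene table of GRCm38.p6.

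Genotypes were compared by limma (version 3.58.1, R 4.3.3, statmod 1.5.0) with lmFit and eBayes at default settings, 1 mean for each genotype over all 8 arrays, and Benjamini-Hochberg adjustment over all genes. The procedure was tested on simulated data. This pools the spread of all genotypes, RMA values understate changes of dim probe sets, and the number of arrays limits the precision. A fold is written as a bound where a genotype had no present call, with values under the lowest detected probe set of their array raised to it. This raising changed neither the fold of Rrp12 nor that of Ppan, and such a bound does not cover the error of the fit. Values in every line are given for genes at an adjusted p under 0.05, for the highest and lowest fold change of each role, for the 10 largest changes among genes whose lines do not overlap and for genes with a lower mean in null lines. Of the 4 further pathway lists, genes that passed were named, or the highest and lowest where none did. Labels give no pairing, and the litter pairs come from the study's text. Deviations from the genotype means correlated at 0.097 and 0.038 over all genes within the pairs, and at −0.114 to 0.095 between other null and wild-type lines. The members and lists were chosen with earlier results of these data known. Tables and plots were made in Python 3.11.15 with pandas 2.3.3, numpy 2.4.6 and matplotlib 3.10.9.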

Additional observations from a re-analysis of the deposited data

How the results depend on the processing

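For null against wild-type lines, 7 ribosome biogenesis genes rose. The count was 13 with detected genes only (442 of 7306 genes in all), 19 with array weights (866 of 18193) and 3 with only these genotypes in the fit (149 of 18193). Over all genes the reported fit had 206. The count was 0 with signal values in place of RMA (18 at an unadjusted p under 0.05) or with the 3′ minus 5′ covariate (5 at an unadjusted p under 0.05), and 0 over all genes in both. It ranged from 0 to 9 when each line was left out in turn. Leaving out both arrays with the fewest present calls (wild-type 3.2, heterozygous 3.1), an alternative chosen after seeing the data, gave 0 (28 at an unadjusted p under 0.05). The count stayed within 1.5 times the reported one with probe sets averaged (7), with trend and robust eBayes (6) and with every probe set tested (9 genes). Averaged probe sets gave 138 and trend and robust eBayes 223 of all 18193 genes, and 321 of all 34945 probe sets passed. The median log2 fold change, 0.49, was 0.28 with the covariate and 0.36 over all probe sets, and 0.42 to 0.56 otherwise. For null against heterozygous lines, with 0 reported, averaged probe sets gave 2, detected genes only 9, only these genotypes 5, trend and robust eBayes 3, and lines left out in turn 0 to 13. Over all genes, null against heterozygous lines gave 20 with averaged probe sets, 166 with detected genes only, 96 with only these genotypes and 43 with trend and robust eBayes. For heterozygous against wild-type lines the count of the 54 genes was 0 in all alternatives run. Of the other pathway genes, 4 rose, against 13 with detected genes only, 17 with array weights, 1 with only these genotypes, 0 with signal values, the covariate or both doubted arrays left out, and 0 to 6 with lines left out in turn. Detected genes only and a smaller set of genotypes differ by construction in the number of genes or arrays tested, and the cause of the other shifts was not tested. No reported direction of a gene that passed was reversed. A line left alone in its genotype is assumed to vary like the others. A replicate block by litter over the 4 lines paired by litter was also chosen after seeing the data. With it, 1 of the 54 genes passed (29 at an unadjusted p under 0.05), against 178 of all 18193 genes. The median log2 fold change of the 54 genes was 0.44, and 0 of the other pathway genes passed. This fit had 1 residual degree of freedom, with the spread pooled over genes. In the reported fit of null against wild-type lines, none of the 54 genes with a log2 fold change under 0.71 passed.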
